A study of Mus musculus with 12 samples.

Results

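The 10 chemokine ligand genes *Ccl2*, *Ccl3*, *Ccl4*, *Ccl5*, *Ccl6*, *Ccl9*, *Ccl17*, *Ccl22*, *Cxcl2*, and *Cxcl10* were examined by RNA-seq after knockdown of the cohesin subunit *Rad21* in mouse hematopoietic stem and progenitor cells. They were chosen by name, with earlier results of these data known, and found by gene symbol through the Ensembl identifiers of the counts, as 10 of 46078 genes. Shares of all genes given beside their counts therefore describe these genes and do not test the list. All 12 libraries came from bone marrow cells of the strain C57BL/6, enriched for LSK cells (lineage-, Sca-1+, c-Kit+), which were infected with a lentivirus that carries GFP and an shRNA, directed at *Rad21* (shRad21) or, as the control, at luciferase (shLuci). In the culture experiment, GFP+ cells that were CD48- and Sca-1+ were sorted after 3 d of culture, and RNA was made into libraries with the TruSeq RNA v2 kit. For the in vivo libraries, GFP+ cells with the LSK phenotype were taken from lethally irradiated recipient mice, at 3 mo after transplantation according to the labels (the study's methods give a later time), and libraries were made with SMART-Seq v4 followed by Nextera XT. Each of the 4 groups held 3 libraries. The culture and in vivo libraries therefore differ in sorted population, kit, and sequencing lane as well as in setting, and these cannot be told apart. The labels do not say whether the 3 libraries of a group came from separate cultures or animals, so p-values measure only the spread between these libraries.

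Chemokines are small secreted proteins that guide the migration of leukocytes by binding to G protein-coupled receptors, and the CC and CXC families are named for the spacing of their first cysteines. Many of their genes are switched on within hours of an inflammatory stimulus, through NF-κB, AP-1, and interferon-regulated factors. In bone marrow, *Ccl3* (MIP-1α) is known as an inhibitor of the proliferation of primitive progenitors, and the ligands of CXCR2 are known for the release of neutrophils.

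Libraries held between 15235129 and 29846689 counts, and levels are given in CPM (counts scaled per library size with the TMM method over all 12 libraries). A value of 3 counts, taken as the floor, was worth between 0.107 and 0.211 CPM, a limit that covers counting error only. *Rad21* was at 384, 419, and 405 CPM in the shLuci and at 154, 137, and 128 CPM in the shRad21 libraries in culture, and at 118, 124, and 125 CPM and 43.4, 47.7, and 43.6 CPM, respectively, in vivo, so that all libraries matched their labels. *Kit*, which marks LSK cells, lay between 266 and 976 CPM in all libraries. The shLuci in vivo replicates 2 and 3 had the most genes with at least 1 count, 26938 and 25108, whereas the other 10 libraries had at most 23217.

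On GRCm38, 6 of the 10 genes lie on chromosome 11. Of these, *Ccl5* (ENSMUSG00000035042, 83525778 to 83530518, minus strand), *Ccl9* (ENSMUSG00000019122, 83572919 to 83578636, minus strand), *Ccl6* (ENSMUSG00000018927, 83587882 to 83593087, minus strand), *Ccl3* (ENSMUSG00000000982, 83647844 to 83649355, minus strand), and *Ccl4* (ENSMUSG00000018930, 83662584 to 83664683, plus strand) form a run of 138.9 kb. *Ccl2* (ENSMUSG00000035385, 82035571 to 82037453, plus strand) lies 1488.3 kb before the start of this run. *Cxcl2* (ENSMUSG00000058427, 90903871 to 90905938, plus strand) and *Cxcl10* (ENSMUSG00000034855, 92346638 to 92348889, minus strand) are on chromosome 5. *Ccl22* (ENSMUSG00000031779, 94745590 to 94751699, plus strand) and *Ccl17* (ENSMUSG00000031780, 94810453 to 94812036, plus strand) are on chromosome 8. No exonic base of these genes is shared with another annotated gene, except for 5.91% of the exonic bases of *Cxcl10*, which overlap *Art3*.

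Promoter sequences of 7 of the 10 genes were matched by symbol in RefSeq (GRCm38.p6), and 5 of them are shown as the 250 bases before the start, 5′ to 3′ on the strand of the gene, because these are the matched genes that were called lower in culture. Capitals mark matches to the κB consensus, the NF-κB binding motif, on either strand.
Cxcl2, chr5:90903649-90903898, plus strand: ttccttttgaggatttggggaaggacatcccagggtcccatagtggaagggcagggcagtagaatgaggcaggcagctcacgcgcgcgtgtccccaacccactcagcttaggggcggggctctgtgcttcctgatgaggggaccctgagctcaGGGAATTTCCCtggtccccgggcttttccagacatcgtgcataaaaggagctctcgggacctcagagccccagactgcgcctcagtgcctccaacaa
Cxcl10, chr5:92348890-92349139, minus strand: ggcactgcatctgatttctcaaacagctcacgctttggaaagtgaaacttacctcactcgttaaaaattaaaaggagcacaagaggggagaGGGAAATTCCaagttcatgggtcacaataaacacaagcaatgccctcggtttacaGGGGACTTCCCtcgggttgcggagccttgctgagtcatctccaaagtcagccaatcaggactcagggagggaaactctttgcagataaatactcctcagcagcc
Ccl9, chr11:83578637-83578886, minus strand: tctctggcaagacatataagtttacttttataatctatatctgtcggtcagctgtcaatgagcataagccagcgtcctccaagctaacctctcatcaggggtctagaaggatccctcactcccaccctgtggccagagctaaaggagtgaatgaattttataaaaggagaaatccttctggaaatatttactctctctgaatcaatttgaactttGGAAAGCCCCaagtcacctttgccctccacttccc
Ccl6, chr11:83593088-83593337, minus strand: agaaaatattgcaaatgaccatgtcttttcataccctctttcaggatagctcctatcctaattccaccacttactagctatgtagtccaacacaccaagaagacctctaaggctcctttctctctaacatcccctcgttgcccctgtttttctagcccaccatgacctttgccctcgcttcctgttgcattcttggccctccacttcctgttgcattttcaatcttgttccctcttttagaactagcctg
Ccl3, chr11:83649379-83649628, minus strand: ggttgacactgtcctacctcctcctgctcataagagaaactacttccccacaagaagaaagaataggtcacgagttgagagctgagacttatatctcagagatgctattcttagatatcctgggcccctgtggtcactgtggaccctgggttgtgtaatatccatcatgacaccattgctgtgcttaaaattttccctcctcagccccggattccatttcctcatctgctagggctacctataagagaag
In windows that also include the 50 bases after the start, a κB match was found in *Cxcl2*, *Cxcl10*, and *Ccl9*, which is 3 of 7 genes, and in 8.46% of the 32851 promoters of the same length in the reference. The first base of the match lay at -97 from the start of *Cxcl2*, where the letters match on both strands and overlap, at -159, -104, and -103 from the start of *Cxcl10*, of which the last ones overlap, and at -35 from the start of *Ccl9*. The AP-1 motif TGANTCA was present in *Cxcl10* at -74 and in *Ccl9* at -53, and in 7.81% of all promoters. The core of the interferon-stimulated response element was present in *Cxcl10* at -213 and in 3.44% of all promoters, and the TATA motif TATAAA in *Ccl9* and in 13.6%. Between *Ccl9* and *Ccl6*, the longest run of identical bases on the same strand was 13 bases. These matches describe the letters only, and the windows of *Ccl3*, *Ccl6*, *Ccl17*, and *Ccl22* held none of the 4 motifs.

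In cultured cells, 7 of the 8 genes with enough counts for a test were lower with shRad21 than with shLuci, including all 5 genes of the *Ccl5* to *Ccl4* run and both CXC ligands. *Ccl2* was the exception. Among the 7, *Ccl6* was tested because of the shLuci libraries alone, so that its call does not support this count. The background was 8.06% of 15543 genes tested lower and 6.18% higher (edgeR's quasi-likelihood test, adjusted p under 0.05 by the Benjamini-Hochberg method). In these 7 genes, each shRad21 library was below each shLuci library, which was the case for 16.2% of all genes tested. All 10 genes, with *Ccl2* included, summed to between 393 and 637 CPM in the shLuci and between 76.1 and 130.3 CPM in the shRad21 libraries. This sum is mostly *Ccl9* and *Ccl3*, with between 60.3% and 64.5% and between 19.7% and 23.8% of its counts, respectively, in the shLuci cultures. In bulk RNA, fewer cells that express a gene and less of its RNA per cell cannot be told apart.

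**Figure D1:**
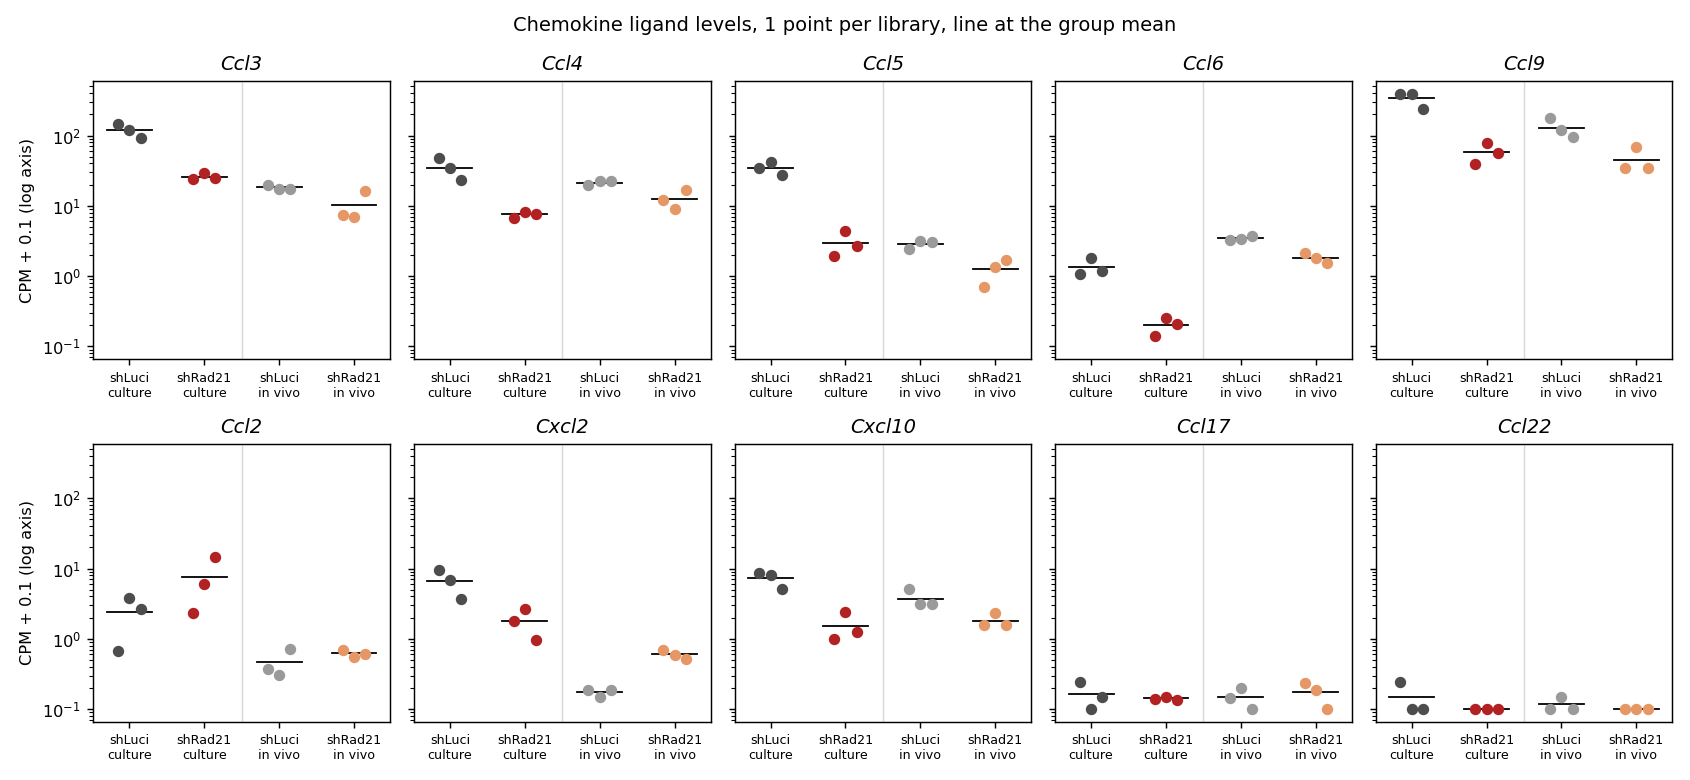
Levels of the 10 chemokine ligand genes in CPM plus 0.1 on a log axis, with 1 point per library and a line at the mean of each group of 3. *Ccl3*, *Ccl4*, *Ccl5*, *Ccl6*, *Ccl9*, *Cxcl2*, and *Cxcl10* are lower in all shRad21 than in all shLuci culture libraries, *Ccl2* overlaps, and *Ccl17* and *Ccl22* lie at the floor throughout.

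*Ccl3* and *Ccl4* encode the macrophage inflammatory proteins MIP-1α and MIP-1β. In culture, *Ccl3* was at 144, 120.3, and 93.3 CPM in the shLuci and at 23.8, 29.5, and 24.4 CPM in the shRad21 libraries. The groups were well apart, with shRad21 at 21.7% of the control mean, and the log2 fold change was -2.20 (SE 0.15, adjusted p = 1.53e-05 from edgeR). *Ccl4*, the next gene along the chromosome, was at 47.1, 34.7, and 22.9 CPM in shLuci and at 6.68, 8.13, and 7.47 CPM in shRad21 cells. It fell by 2.22 on the log2 scale (SE 0.22, adjusted p = 0.000153 from edgeR), much like its neighbour, although the shLuci libraries were spread more widely. The ratio of *Ccl3* to *Ccl4* per exonic length was between 2.64 and 3.51 in the shLuci and between 2.82 and 3.13 in the shRad21 libraries, so that it overlapped between groups.

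*Ccl5* encodes RANTES, a ligand of CCR1 and CCR3 that is best known from T cells. Its levels in culture were 34.5, 41.4, and 27.2 CPM in shLuci and 1.86, 4.29, and 2.56 CPM in shRad21 cells. All shRad21 libraries were far below all shLuci libraries, at 8.45% of their mean, with a log2 fold change of -3.58 (SE 0.26, adjusted p = 1.91e-05 from edgeR). *Ccl6* and *Ccl9* are mouse ligands of CCR1 made by myeloid cells. *Ccl9*, the gene with the most counts of the 10, was at 392, 394, and 237 CPM in shLuci and at 38.9, 77.4, and 56.3 CPM in shRad21 cells. The groups did not overlap, and the log2 fold change was -2.56 (SE 0.25, adjusted p = 0.000107 from edgeR). *Ccl6* had 14, 33, and 23 counts in the shLuci and 1, 3, and 3 counts in the shRad21 libraries. It was tested because of the shLuci libraries alone, so that its call (log2 fold change -3.61, SE 0.47, adjusted p = 0.000596 from edgeR) does not support the count of lower genes. From the summed counts, the level in shRad21 cells was 0.0764 times that in shLuci cells, with a 95% exact counting interval of 0.0296 to 0.166.

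Outside chromosome 11, *Cxcl2*, a ligand of the neutrophil receptor CXCR2, was at 9.48, 6.78, and 3.60 CPM in shLuci and at 1.69, 2.53, and 0.854 CPM in shRad21 cultures. The groups were apart, though the lowest shLuci library was close to the highest shRad21 library, and the log2 fold change was -1.98 (SE 0.40, adjusted p = 0.00725 from edgeR). *Cxcl10*, an interferon-inducible ligand of CXCR3, was at 8.49, 8.06, and 5.09 CPM in shLuci and at 0.907, 2.27, and 1.14 CPM in shRad21 cells. It was lower in all shRad21 libraries and fell by 2.34 on the log2 scale (SE 0.32, adjusted p = 0.000849 from edgeR). The calls of all 7 lower genes held in culture with each library left out in turn.

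*Ccl2* encodes the monocyte attractant that binds CCR2. In culture it was at 0.562, 3.70, and 2.57 CPM in the shLuci and at 2.23, 5.96, and 14.4 CPM in the shRad21 libraries. The groups overlapped, and both held libraries that differed several-fold. The log2 fold change was 1.69 (SE 0.62, adjusted p = 0.102 from edgeR), which did not pass the threshold. Libraries of the same number deviated together in culture across genes, and shRad21 was above shLuci in each numbered pair for *Ccl2*. With the replicate number as a block, the log2 fold change was 1.68 (SE 0.27, adjusted p = 0.00014 from edgeR), past the threshold. With the block, 9.31% of all genes tested were higher and 11.2% were lower. Without shRad21 culture replicate 1, the log2 fold change was 2.14 (adjusted p = 0.0184 from edgeR). *Ccl17* and *Ccl22*, ligands of CCR4 that are typical of dendritic cells, had between 0 and 3 counts and between 0 and 2 counts per library, respectively, and were too low for any test. No difference was detectable at this depth for either gene.

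In vivo, 3 of the 7 tested genes passed the threshold, all of them lower with shRad21 (*Ccl4*, *Ccl6*, and *Ccl9*). The background in vivo was 5.32% of 15938 genes lower and 5.65% higher in edgeR's test. All shRad21 libraries were below all shLuci libraries for *Ccl3*, *Ccl4*, *Ccl5*, *Ccl6*, *Ccl9*, and *Cxcl10*, 6 of 7 genes, against 15.8% of all genes tested. With both shLuci libraries of the most detected genes left out, which leaves 1 control library that is assumed to vary like the others, 2 genes were lower, *Ccl9* (-1.93, adjusted p = 0.0121) and *Cxcl10* (-1.50, adjusted p = 0.0487 from edgeR), and *Ccl4* (adjusted p = 0.316) and *Ccl6* (adjusted p = 0.261) were not called.

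*Ccl9* was at 177, 118, and 94.1 CPM in the shLuci and at 34.6, 67.8, and 34.0 CPM in the shRad21 libraries in vivo. The groups did not overlap, and the log2 fold change was -1.49 (SE 0.29, adjusted p = 0.0097 from edgeR). The call was lost without shRad21 in vivo replicate 3 (adjusted p = 0.0518). *Ccl4* was at 19.6, 22.1, and 22.4 CPM in shLuci and at 11.8, 8.94, and 16.9 CPM in shRad21 cells. Each shRad21 library was lower, with a log2 fold change of -0.75 (SE 0.20, adjusted p = 0.0421 from edgeR). *Ccl6*, unlike in culture, had 64 or more counts in each shLuci library, with 3.11, 3.23, and 3.67 CPM, and 2.02, 1.71, and 1.46 CPM in the shRad21 libraries. Its groups were apart and tight, and it fell by 0.93 on the log2 scale (SE 0.24, adjusted p = 0.0352 from edgeR). The calls of *Ccl4* and *Ccl6* rested on all libraries. That of *Ccl4* was kept only without shRad21 in vivo replicate 3 (adjusted p = 0.0112), and was lost without any other library (adjusted p between 0.061 and 0.128 from edgeR). That of *Ccl6* was lost without any of the 6 (adjusted p between 0.0594 and 0.14).

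*Ccl3* was at 19.9, 17.3, and 17.4 CPM in shLuci and at 7.23, 6.78, and 16.2 CPM in shRad21 cells in vivo. The shRad21 replicate 3 lay next to the control libraries, and the log2 fold change of -0.84 (SE 0.29, adjusted p = 0.106 from edgeR) did not pass the threshold. Without this library it was -1.36 (adjusted p = 0.00244). *Ccl5* was at 2.31, 3.08, and 2.92 CPM in shLuci and at 0.595, 1.26, and 1.60 CPM in shRad21 cells. The shRad21 libraries were all lower, but the log2 fold change of -1.25 (SE 0.36, adjusted p = 0.0567 from edgeR) missed the threshold. For *Cxcl10*, at 4.94, 2.98, and 3.01 CPM in shLuci and 1.47, 2.20, and 1.46 CPM in shRad21 cells, the log2 fold change was -1.07 (SE 0.30, adjusted p = 0.05001 from edgeR), at the threshold. *Cxcl10* passed it without shRad21 in vivo replicate 2 (adjusted p = 0.0458). *Ccl2* had between 4 and 14 counts in each in vivo library, and its log2 fold change was 0.52 (SE 0.54, adjusted p = 0.635 from edgeR).

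*Cxcl2* had more counts with shRad21 than with shLuci in vivo. It had 2, 1, and 2 counts in the shLuci and 13, 11, and 9 counts in the shRad21 libraries. All shRad21 libraries were higher, but the levels were low, and too few counts were present for the test of the in vivo libraries alone. From the summed counts, 33 against 5, the level with shRad21 was 6.56 times that with shLuci, with a 95% exact counting interval of 2.54 to 21.5. In the model of all 12 libraries, in which *Cxcl2* was kept because of its level in culture, the in vivo log2 fold change was 2.63 (SE 0.69, adjusted p = 0.0208 from edgeR), where 6.09% of 17050 genes were higher and 6.15% were lower. Without a filter on low counts, the adjusted p from the in vivo libraries was 0.0524.

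**Figure D2:**
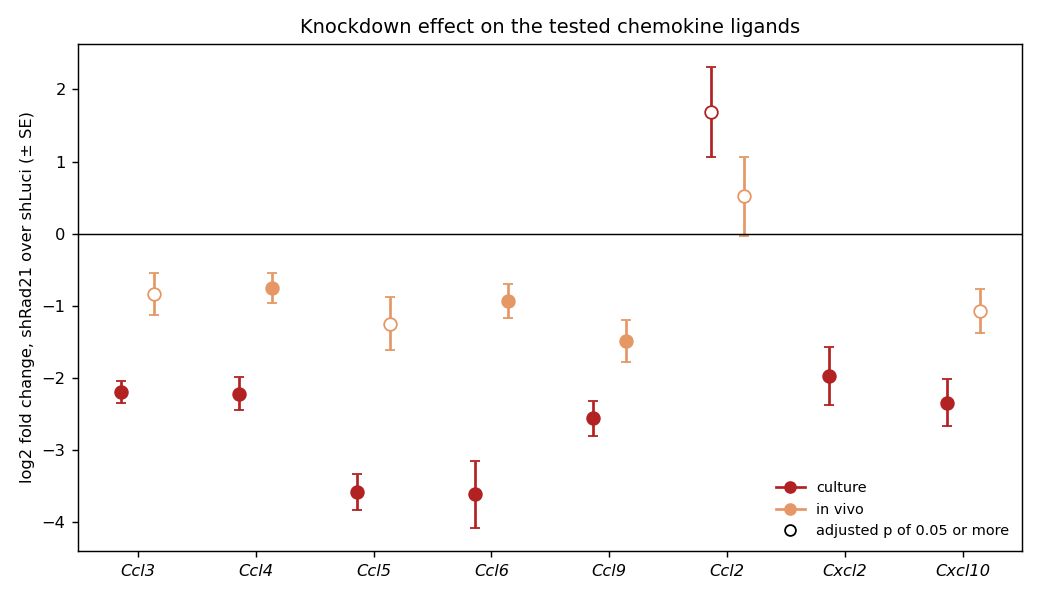
Log2 fold change of shRad21 over shLuci with its SE for the tested chemokine ligand genes, in culture (dark) and in vivo (light), from edgeR's fits of 6 libraries each. Filled points have an adjusted p under 0.05. The 7 lower genes in culture lie between -3.61 and -1.98, whereas the lower genes in vivo lie between -1.49 and -0.75. The value of -3.61 is that of *Ccl6*, which was tested in culture because of the shLuci libraries alone.

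The model of all 12 libraries was used to ask whether the knockdown effect differed between both settings. The background was 3.03% of 17050 genes with a more negative and 1.64% with a more positive effect in culture, at an adjusted p under 0.05 from edgeR. Of the 8 tested chemokine ligands, 5 had a more negative effect in culture, and none a more positive one. The difference, culture minus in vivo on the log2 scale, was -1.35 for *Ccl3* (adjusted p = 0.0392), -1.46 for *Ccl4* (adjusted p = 0.0226), -2.32 for *Ccl5* (adjusted p = 0.00867), -2.67 for *Ccl6* (adjusted p = 0.00832), and -4.60 for *Cxcl2* (adjusted p = 0.00326), which rests on 5 counts in the shLuci in vivo libraries. For *Ccl9* (-1.06, adjusted p = 0.201), *Cxcl10* (-1.25, adjusted p = 0.177), and *Ccl2* (1.20, adjusted p = 0.63), a difference was not shown. Without a filter on low counts, *Ccl9* (-1.07, adjusted p = 1.12e-13 from edgeR) and *Cxcl10* (-1.27, adjusted p = 0.0417) passed. There the SE of *Ccl9* was 0.13 instead of 0.43, and that of *Cxcl10* 0.40 instead of 0.48. The smaller p of *Ccl9* thus reflects a smaller fitted spread and not a larger difference, and it is not taken as support. *Ccl5*, *Ccl6*, and *Cxcl2* kept the call with each library left out in turn. *Ccl3* lost it without any of 9 libraries (adjusted p between 0.0525 and 0.0945), namely all except shLuci culture replicate 3 and shRad21 in vivo replicates 1 and 2. *Ccl4* lost it without shLuci culture replicate 2 (adjusted p = 0.054), shRad21 culture replicate 1 (0.0623) or 3 (0.0524), or shRad21 in vivo replicate 3 (0.063).

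In control cells, the levels of all 8 tested genes differed between the settings, at a high background of 37.1% of 17050 genes lower and 37.1% higher in culture (adjusted p under 0.05 from edgeR). *Ccl2*, *Ccl3*, *Ccl4*, *Ccl5*, *Ccl9*, *Cxcl2*, and *Cxcl10* were higher in cultured shLuci cells. *Cxcl2* had a fitted log2 difference of 6.31 (SE 0.56, adjusted p = 9.77e-08), but only 5 counts in vivo, and from the summed counts its level in culture was 81.0 times that in vivo (95% exact counting interval of 34.4 to 251). It was followed by *Ccl5* with 3.63 (SE 0.30, adjusted p = 3.81e-08) and *Ccl3* with 2.71 (SE 0.25, adjusted p = 1.21e-07). *Ccl6* was the only one that was lower in culture, with a log2 difference of -1.40 (SE 0.29, adjusted p = 0.000494). *Ccl4* differed the least (0.70, adjusted p = 0.0127), and its call was lost without shLuci culture replicate 1 (adjusted p = 0.0923). The setting, the sorted population, and the kit cannot be told apart in these differences.

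Levels of different genes were compared as CPM per kb of exon. In cultured shLuci cells, *Ccl3* (156 CPM per kb on average) and *Ccl9* (112) were the most abundant, followed by *Ccl4* (52.9) and *Ccl5* (35.8), and then by *Cxcl10* (3.20), *Cxcl2* (3.20), *Ccl2* (2.0), and *Ccl6* (0.697). Libraries of neighbours in this order overlapped, except between *Ccl9* and *Ccl4*, *Ccl5* and *Cxcl10*, and *Ccl6* and *Ccl17*. In shLuci cells in vivo, *Ccl9* (42.6 CPM per kb), *Ccl4* (32.4), and *Ccl3* (23.8) led, *Ccl5* (2.89), *Ccl6* (1.86), and *Cxcl10* (1.62) followed, and *Ccl2* (0.319) and *Cxcl2* (0.0367) were near the floor. *Ccl9* overlapped *Ccl4*, and *Ccl6* overlapped *Cxcl10*. The ratio of *Ccl3* to *Ccl4* per exonic length, between 2.64 and 3.51 in cultured shLuci cells, was between 0.669 and 0.877 in vivo, without overlap. After the knockdown, *Ccl3* (33.8 CPM per kb) and *Ccl9* (18.9) still led in culture, with *Ccl2* (6.62) next to *Ccl4* (11.3) and above *Ccl5* (3.03) on average, although its libraries overlapped those of both. In shRad21 cells in vivo, the order was *Ccl4* (19.0 CPM per kb), *Ccl9* (14.9), and *Ccl3* (13.2), whose libraries overlapped.

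**Figure D3:**
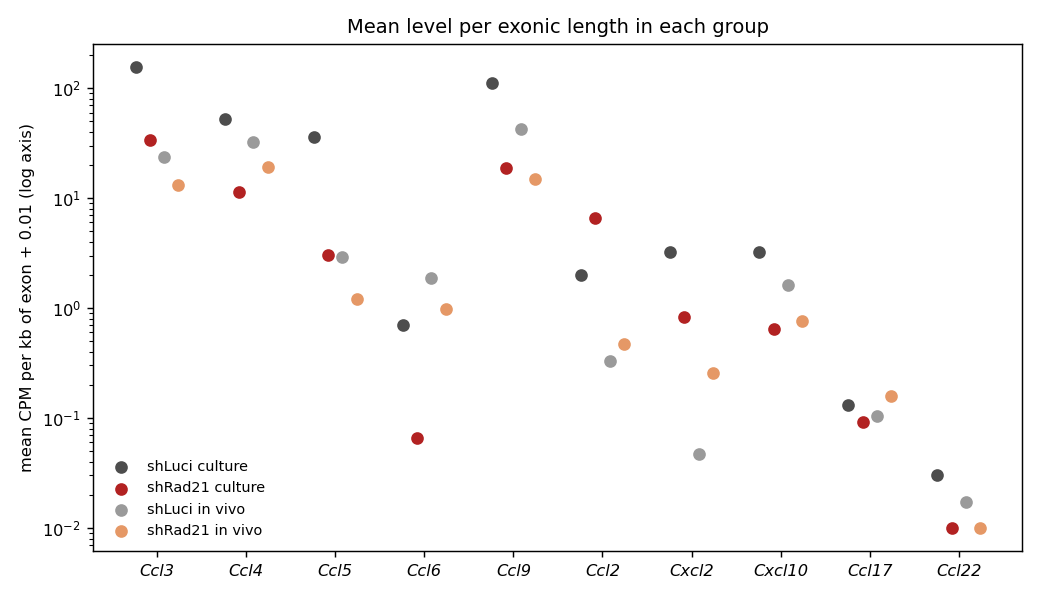
Mean level of each chemokine ligand gene in CPM per kb of exon plus 0.01, on a log axis, in the 4 groups. *Ccl3*, *Ccl9*, *Ccl4*, and *Ccl5* stand above the others in cultured shLuci cells (35.8 to 156 CPM per kb), and *Cxcl2* spans the widest range between both shLuci groups.

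The genes of the chromosome 11 run were then compared with the other chemokine ligands. The median log2 fold change in culture was -2.56 over the 5 genes from *Ccl5* to *Ccl4*, all lower, and -2.39 over all 6 genes of chromosome 11. It was -2.16 over *Cxcl2* and *Cxcl10* on chromosome 5, both lower, and -0.0039 over all genes tested. All values of the run include *Ccl6*, which was tested in culture because of the shLuci libraries alone and does not support the count of lower genes. *Ccl2* was the only tested gene of either set that was not called lower in culture. In vivo, the median was -0.93 over the run and -0.0019 over all genes tested. Of the run, 3 of 5 genes were lower, against 5.32% of all genes tested. *Cxcl10*, the only gene of the other chromosomes tested in vivo, was at -1.07 and was not called. The mean log2 CPM of the run was between 4.79 and 5.38 in the shLuci and between 2.15 and 2.87 in the shRad21 cultures, and between 3.74 and 3.81 and between 2.42 and 2.92, respectively, in vivo. The groups did not overlap in either setting. For single genes, all shRad21 libraries were below all shLuci libraries in 16.2% of genes tested in culture and 15.8% in vivo. The mean of *Cxcl2* and *Cxcl10* was between 2.13 and 3.18 in the shLuci and between 0.121 and 1.32 in the shRad21 cultures, also apart. In vivo it was between -0.556 and -0.0353 and between -0.1465 and 0.226, respectively, which overlapped, with *Cxcl2* near the floor in shLuci cells.

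Within 100 kb of the run, 18 other annotated genes were in the counts, of which 7 were tested in culture. Of these, 4 were lower, against 8.06% of all genes tested. *Heatr9*, the gene next to *Ccl5*, had 22, 20, and 24 counts in the shLuci and 0, 1, and 1 counts in the shRad21 cultures (log2 fold change -5.17, SE 0.56, adjusted p = 0.000225 from edgeR). *E230016K23Rik*, a noncoding transcript on the strand opposite to *Ccl6* that spans this gene without sharing exonic bases, had 13, 21, and 16 and then 1, 4, and 5 counts (-2.66, SE 0.46, adjusted p = 0.00318). *Wfdc17*, which encodes a secreted WAP-domain protein, was at 11.5, 5.70, and 3.18 CPM in shLuci and at 0.495, 0.303, and 0.356 CPM in shRad21 cells (-4.08, SE 0.49, adjusted p = 0.000415). These 3 genes were tested because of the shLuci libraries alone. The other gene, *1700020L24Rik* (-0.93, SE 0.22, adjusted p = 0.0179), shares 44.4% of its exonic bases with *Mmp28* on the other strand, and since no strand setting of the counting is given here, reads of both cannot be told apart. *Mmp28* (-0.54, adjusted p = 0.0637), *Taf15* (-0.32, adjusted p = 0.0648), and *Heatr6* (-0.23, adjusted p = 0.124) did not pass the threshold, and their fold changes were smaller than those of the chemokine ligands. With the replicate block, *Mmp28* (adjusted p = 0.0067) and *Taf15* (adjusted p = 0.0144) passed it at log2 fold changes of -0.55 and -0.31. With the block, 6 of the 7 genes were lower, against 11.2% of all genes tested, and these 6 include the 3 genes tested because of the shLuci libraries alone. *Mmp28* also passed without shRad21 culture replicate 3 (adjusted p = 0.0304) and *Taf15* without shLuci culture replicate 1 (adjusted p = 0.00773). The call of *1700020L24Rik* was lost without shLuci culture replicate 2 or shRad21 culture replicate 1 or 2 (adjusted p between 0.0607 and 0.0883).

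In vivo, *Wfdc17* was at 76.0, 79.4, and 75.7 CPM in shLuci and at 7.51, 13.9, and 14.0 CPM in shRad21 cells (log2 fold change -2.69, SE 0.20, adjusted p = 6.93e-05 from edgeR). No shRad21 library came near the controls. Its neighbour *Wfdc18* was at 3.74, 4.69, and 5.22 CPM and at 0.321, 0.539, and 1.18 CPM (-2.72, SE 0.41, adjusted p = 0.00261), and with 7, 12, and 25 counts in the shRad21 libraries it was tested because of the shLuci libraries alone. Several unprocessed pseudogenes lie beside both genes, without counts in any library. Whether they are copies of these genes was not tested, and if reads of copies were split, these values are uncertain. With both shLuci libraries of the most detected genes left out, *Wfdc17* kept its call (-2.66, adjusted p = 0.00176) and *Wfdc18* did not (-2.43, adjusted p = 0.0524). *Wfdc21* (0.10), *Heatr6* (-0.07), *Taf15* (0.08), *Mmp28* (0.33), and *1700020L24Rik* (-0.46) did not pass the threshold in vivo (adjusted p between 0.466 and 0.889). The interaction was not past the threshold for any of the 9 tested genes beside the run. Beside *Ccl2*, none of the 7 other genes in the counts within 100 kb was tested, and the chemokine ligands *Ccl7*, *Ccl8*, *Ccl11*, and *Ccl12* had at most 6 counts in any library.

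**Figure D4:**
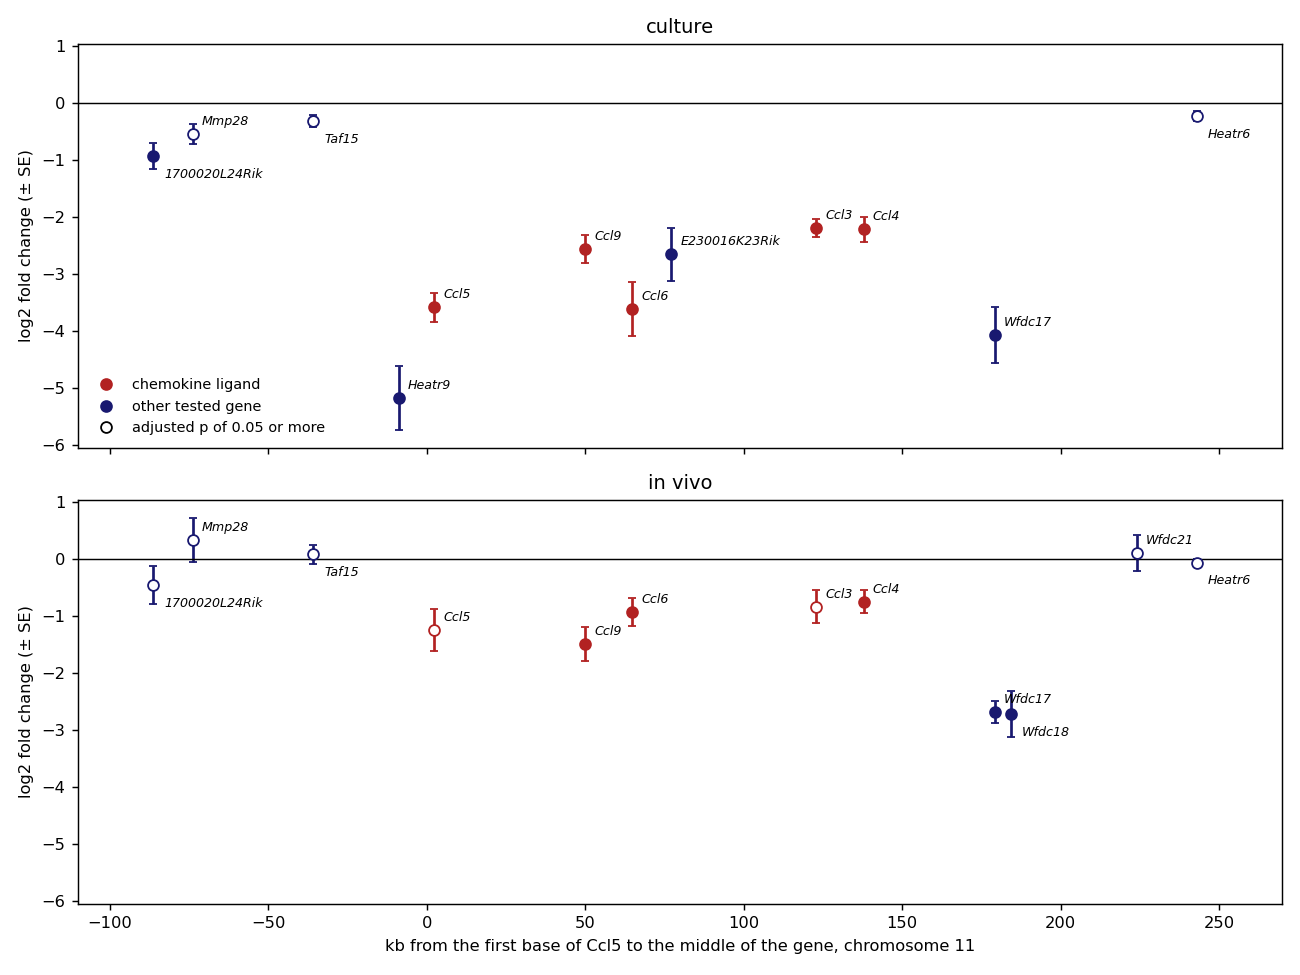
Log2 fold change of shRad21 over shLuci with its SE, in culture (top) and in vivo (bottom), against the distance in kb from the first base of *Ccl5* on chromosome 11, for chemokine ligands (red) and other tested genes (dark blue). In culture, the tested genes from *Heatr9* to *Wfdc17* lie between -5.17 and -2.20, and the outer genes between -0.93 and -0.23. *Heatr9*, *E230016K23Rik*, *Ccl6*, and *Wfdc17* were tested because of the shLuci libraries alone, so that their values do not support this contrast. The other inner genes, all chemokine ligands, lie between -3.58 and -2.20. *Rpl9-ps1*, which lies among the inner genes, was not tested and is not shown (10 counts in shLuci and 15 in shRad21 cultures).

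Of 37 other chemokine ligand genes, only 8 were tested in culture and 9 in vivo. In culture 4 were lower, namely *Cxcl3*, *Cx3cl1*, and the platelet chemokines *Pf4* and *Ppbp*, against 8.06% of all genes tested. The median log2 fold change of the tested ligands was -0.52. *Cxcl3*, a CXCR2 ligand like *Cxcl2*, had 18, 22, and 27 counts in the shLuci and 6, 2, and 3 in the shRad21 cultures (log2 fold change -2.94, adjusted p = 0.000691 from edgeR), and was tested because of the shLuci libraries alone. *Cx3cl1* was at 25.6, 16.0, and 16.6 CPM and at 8.62, 9.45, and 9.89 CPM (-1.04, adjusted p = 0.00309). *Pf4* (-0.65, adjusted p = 0.0171) and *Ppbp* (-0.80, adjusted p = 0.0208) also fell, at smaller fold changes. The call of *Pf4* was lost without shLuci culture replicate 2 (adjusted p = 0.0858), and that of *Ppbp* without this library or shRad21 culture replicate 1 or 3 (adjusted p between 0.0565 and 0.0843). In vivo, *Cx3cl1* (0.996, adjusted p = 0.0744), *Pf4* (0.86, adjusted p = 0.0621), and *Ppbp* (1.12, adjusted p = 0.215) had positive log2 fold changes that did not pass the threshold, and the interaction passed it for *Cx3cl1* (-2.02, adjusted p = 0.00725) and *Pf4* (-1.51, adjusted p = 0.0178). Without shLuci in vivo replicate 3, *Cx3cl1* (1.30, adjusted p = 0.0402), *Pf4* (1.16, adjusted p = 0.0199), and *Ppbp* (1.92, adjusted p = 0.0341) passed it in vivo, and without shLuci culture replicate 2 the interaction of *Pf4* did not (adjusted p = 0.0524). *Cxcl12*, the stromal ligand that retains stem cells in the marrow, was the only one lower in vivo, against 5.32% of all genes tested. It had 17, 57, and 30 counts in the shLuci and 5, 6, and 10 counts in the shRad21 libraries (-2.32, adjusted p = 0.0306), and no counts in any cultured library. It was tested because of the shLuci libraries alone, and its call was lost without any library other than shLuci in vivo replicate 1 (adjusted p between 0.0526 and 0.118), and with both shLuci libraries of the most detected genes left out (adjusted p = 0.484), when *Pf4* (1.36, adjusted p = 0.0395) and *Ppbp* (2.80, adjusted p = 0.0141) were higher in vivo.

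Receptors of these ligands were measured as well. In culture, 3 of 6 tested receptors were lower and 1 was higher, against 8.06% and 6.18% of all genes tested. *Ccr1*, the receptor of CCL3, CCL5, CCL6, and CCL9, had 16, 30, and 25 counts in the shLuci and 1, 2, and 5 counts in the shRad21 cultures (log2 fold change -3.46, SE 0.44, adjusted p = 0.000539 from edgeR), and was tested because of the shLuci libraries alone. *Ccr2*, the receptor of CCL2 (-1.46, adjusted p = 0.0219), and *Cxcr2* (-1.68, adjusted p = 0.0118), tested because of the shLuci libraries alone, were also lower. *Ackr1*, an atypical receptor that binds many CC and CXC chemokines without signaling, was higher, at 0.842, 0.668, and 1.21 CPM in shLuci and 3.67, 3.84, and 4.16 CPM in shRad21 cells (2.08, adjusted p = 0.000379). In vivo, of 7 tested receptors, *Ccr2* was lower (-1.05, adjusted p = 0.013) and *Ackr1* was higher (1.97, adjusted p = 0.00697). Over all genes tested in vivo, 5.32% were lower and 5.65% were higher. *Ccr1* had a log2 fold change of -1.19 in vivo (adjusted p = 0.145). *Ccr2* lost its call in culture without shLuci culture replicate 2 or shRad21 culture replicate 1 or 3 (adjusted p between 0.0781 and 0.117), and in vivo without shRad21 in vivo replicate 3 (adjusted p = 0.067). *Cxcr2* lost it without shLuci culture replicate 2 (adjusted p = 0.0622).

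For regulators of chemokine genes, the background over all genes tested was 8.06% lower and 6.18% higher in culture, and 5.32% and 5.65% in vivo. Of 13 genes of the NF-κB pathway, 7 were lower in culture and none in vivo. They were the IκB family genes *Nfkbiz* (log2 fold change -1.51, adjusted p = 0.000427 from edgeR), *Nfkbia* (-1.33, adjusted p = 0.000592), and *Nfkbie* (-0.56, adjusted p = 0.0105), the ubiquitin-editing inhibitor *Tnfaip3* (-1.11, adjusted p = 0.000638), and the subunits *Relb* (-0.76, adjusted p = 0.0147), *Nfkb2* (-0.74, adjusted p = 0.00239), and *Rel* (-0.27, adjusted p = 0.0398). *Rel* lost its call without any library other than shLuci culture replicate 3 (adjusted p between 0.0545 and 0.193), *Relb* without shLuci culture replicate 1 or 2 or shRad21 culture replicate 1 or 3 (adjusted p between 0.0544 and 0.0751), and *Rel* was called lower in vivo without shLuci in vivo replicate 1 (adjusted p = 0.041). Of 8 tested AP-1 genes, *Atf3* (-2.75, adjusted p = 0.00408, tested because of the shLuci libraries alone), *Fos* (-1.44, adjusted p = 0.0374), *Junb* (-0.99, adjusted p = 0.000614), *Jund* (-0.84, adjusted p = 0.00237), and *Batf* (-0.69, adjusted p = 0.0146) were lower in culture, and 1 gene, *Jun* (0.60, adjusted p = 0.00278), was higher in vivo. *Fos* lost its call without any library other than shLuci culture replicate 1 (adjusted p between 0.0597 and 0.15), and *Batf* without shLuci culture replicate 2 or shRad21 culture replicate 1 (adjusted p between 0.0542 and 0.0553). Of 9 genes of the interferon pathway, *Irf8* and *Irf5* were lower in culture (-1.07, adjusted p = 0.00177, and -0.86, adjusted p = 0.000785), and in vivo *Irf8* (-1.76, adjusted p = 0.000172), *Irf5* (-0.59, adjusted p = 0.00205), and *Irf1* (-0.44, adjusted p = 0.00829) were lower. With both shLuci libraries of the most detected genes left out, *Irf8* alone was called in vivo (-1.95, adjusted p = 0.00135), and *Irf5* (adjusted p = 0.0849), *Irf1* (adjusted p = 0.0987), and *Jun* (adjusted p = 0.0539) were not. All of these p-values are from edgeR's quasi-likelihood test.

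Markers of other cell types also changed with the knockdown, in both directions, and their part in the results was not tested. Over all genes tested, 8.06% were lower and 6.18% higher in culture, and 5.32% and 5.65%, respectively, in vivo. In culture, 6 monocyte and macrophage, 4 dendritic cell, 2 neutrophil, and 3 B-cell markers had enough counts for a test. So had 2 T and NK cell, 5 mast cell and basophil, and 5 erythroid and megakaryocyte markers. In vivo, these numbers were 7, 7, 8, 8, 4, 7, and 8, in the same order. Of 8 markers of monocytes and macrophages, *Csf1r*, *Cd14*, *Itgam*, and *Cd68* were lower and *Fcgr1* was higher in culture, and *Csf1r*, *Itgam*, and *Cd68* were lower in vivo. Their summed level was between 184 and 245 CPM in the shLuci and between 170 and 185 CPM in the shRad21 cultures, and between 539 and 588 CPM and between 496 and 559 CPM, respectively, in vivo. Of 8 dendritic cell markers, 4 were lower in culture (106.5 to 156 CPM against 67.7 to 89.9 CPM), and in vivo 2 were lower and 1 was higher (279 to 356 CPM against 127 to 139 CPM). Neutrophil markers summed to at most 31.0 CPM in cultured cells, with *Retnlg* at 0, and to between 1447 and 1803 CPM in the shLuci and between 1027 and 1170 CPM in the shRad21 cells in vivo, and 1 of 8, *Mpo*, was lower in each setting. Of 8 B-cell markers, 1 (*Cd79b*) was lower in culture (85.5 to 108 CPM against 64.8 to 93.7 CPM, with *Ms4a1* at 0) and 5 were lower in vivo (904 to 2380 CPM against 683 to 1413 CPM). Of 8 markers of T and NK cells, *Nkg7* was lower in culture (21.3 to 38.9 CPM against 13.3 to 20.7 CPM, with *Cd8a* at 0), and in vivo *Nkg7* was lower and *Klrb1c* was higher (305 to 412 CPM against 238 to 265 CPM). Of 8 mast cell and basophil markers, *Cpa3* was higher in culture, and *Cpa3* and *Cma1* were higher in vivo. Erythroid and megakaryocyte markers summed to 571 to 661 CPM against 621 to 936 CPM in culture, with 3 of 8 higher (*Gp9*, *Itga2b*, and *Gp1ba*) and *Pf4*, also a chemokine ligand, lower, and to 325 to 367 CPM against 489 to 663 CPM in vivo, with the same 3 higher and *Klf1* lower. Of 8 markers of LSK cells and stem cells, *Kit* and *Flt3* were lower in both settings and *Cd34* in vivo, and *Slamf1* and *Mecom* were higher in both, *Hlf* in culture and *Ly6a* in vivo. With the replicate block, *Ly6a* was lower (-0.69, adjusted p = 0.000464) and *Procr* (0.40, adjusted p = 0.00352) and the basophil and mast cell gene *Ms4a2* (2.15, adjusted p = 0.00199) were higher in culture. Which of these markers to name was chosen after their values were seen.

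The genes whose pattern was most like that of the chemokine ligands were sought by the mean log2 CPM, centred within each experiment, of the 7 chemokine ligands tested in both settings. Over the 12 libraries, which share their groups and depth, Pearson's r was 0.984 for *Ncf1*, 0.980 for *Irf2bp2*, 0.974 for *Myl4*, 0.970 for *Fcgr2b*, and 0.969 for *S1pr3*. *Ncf1*, a subunit of the phagocyte NADPH oxidase, was at 551, 632, and 525 CPM in the shLuci and at 90.4, 167, and 171 CPM in the shRad21 cultures, and at 106, 111, and 120 CPM and 39.2, 50.2, and 56.4 CPM, respectively, in vivo. *Fcgr2b* is the inhibitory Fc receptor, and *S1pr3* is a receptor of sphingosine-1-phosphate. These correlations describe the 12 libraries, and no p was attached to them.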

How the data were processed

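RNA was sequenced from 12 libraries in 4 groups of 3. The authors deposited raw counts per Ensembl gene, 1 column per library, without normalization. According to the study's methods, reads were trimmed, ribosomal reads were removed, and the rest was aligned to GRCm38 with TopHat2 and counted with HTSeq. The submitters' processing notes name bcl2fastq 1.8.4, FastQC 0.11.3, TopHat2 2.0.11, HTSeq 0.6.1, and DESeq2 1.16.1. The strand setting of the counting is not given in the sources used here. Totals per library bound the precision of low genes, and counting intervals cover counting error only.

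Of the 46078 genes, 45229 were matched to GENCODE M21, which gave symbols, positions, and exonic lengths, and 849 were not. Genes were filtered with filterByExpr of edgeR 4.0.16 (minimum count of 10, minimum total of 15), scaled with TMM, and tested with the quasi-likelihood test in R 4.3.3, with p-values adjusted over all genes tested (Benjamini-Hochberg, threshold 0.05). Culture and in vivo libraries were fitted separately, and differences between settings were taken from 1 model of all 12 libraries. The test was tested on simulated data with known changes. Log2 CPM means used CPM plus 0.1. Python 3.11.15, pandas 2.3.3, NumPy 2.4.6, SciPy 1.17.1, and matplotlib 3.10.9 were used for summaries. Alternatives were DESeq2 1.42.0, upper-quartile scaling, library size only, other filters, the single model, a replicate block, and each library left out.

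Same-numbered libraries were paired in culture by the data, not by the labels: deviations from the group means correlated over 15543 genes with r between 0.216 and 0.262 for equal numbers and between -0.322 and 0.0686 for others. The genes and lists were chosen with earlier results of these data known. Genes were named if they were among the 10 chemokine ligands, *Rad21*, tested genes beside the run, other chemokine ligands, receptors, or regulators called in a knockdown comparison, or the 5 genes most like the mean profile. Promoters were taken from RefSeq (GRCm38.p6), and protein sequences were not used here.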

Additional observations from a re-analysis of the deposited data

Results flagged for a closer look

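The knockdown effect differed between culture and in vivo for 14 of the ligands and regulators named above, in the test of the difference itself (culture minus in vivo, log2 scale, edgeR's model of all 12 libraries). Among the chemokine ligands these were *Ccl3* (-1.35, adjusted p = 0.0392), *Ccl4* (-1.46, adjusted p = 0.0226), *Ccl5* (-2.32, adjusted p = 0.00867), *Ccl6* (-2.67, adjusted p = 0.00832), and *Cxcl2* (-4.60, adjusted p = 0.00326), and outside the 10 genes *Pf4* (-1.51, adjusted p = 0.0178) and *Cx3cl1* (-2.02, adjusted p = 0.00725). The regulators of the NF-κB pathway were *Nfkbiz* (-1.80, adjusted p = 0.00122), *Nfkbia* (-1.29, adjusted p = 0.00436), *Tnfaip3* (-0.90, adjusted p = 0.0152), and *Nfkb2* (-0.87, adjusted p = 0.0144), and those of AP-1 were *Junb* (-1.03, adjusted p = 0.00745), *Batf* (-0.76, adjusted p = 0.0432), and *Jun* (-0.70, adjusted p = 0.0488). *Batf* lost the call without any of 10 libraries (adjusted p between 0.057 and 0.104), namely all except shLuci culture replicate 3 and shRad21 in vivo replicate 2, and *Jun* without any of 10 (adjusted p between 0.06 and 0.119), namely all except shRad21 culture replicate 3 and shRad21 in vivo replicate 2. All 14 effects were more negative in culture. Over all 17050 genes tested, 3.03% had a more negative and 1.64% a more positive effect in culture. Of the cell type markers named above, *Kit* (-0.99, adjusted p = 0.000367), *Slamf1* (-0.83, adjusted p = 0.0415), and *Klrb1c* (-4.92, adjusted p = 0.000247) also had a more negative effect in culture, whereas *Cd34* (0.47, adjusted p = 0.00832) and *Klf1* (2.16, adjusted p = 0.00366) had a more positive one. *Slamf1* lost the call without any of 9 libraries (adjusted p between 0.0523 and 0.124), namely all except shLuci culture replicate 1, shRad21 culture replicate 3, and shRad21 in vivo replicate 3. The setting cannot be told apart from the sorted population and the kit.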

How the results depend on the processing

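With DESeq2, without a filter, with 10 counts in every library, and in the single model of all 12 libraries, 6, 5, 5, and 5 chemokine ligands were lower in vivo instead of 3, and the cause was not tested. Of these settings, the share of all genes called is given here only for the single model, 6.15% lower in vivo against 5.32%. The changed counts, also those of the other gene sets below, are therefore not read as results about these genes. In the single model 1, *Cxcl2*, was higher in vivo. Without a filter, 1 (*Ccl2*) was higher in culture, at a log2 fold change of 1.71 with an SE of 0.21 instead of 0.62. With 10 counts in every library, which tests fewer genes, 3 instead of 5 differed between settings, and 0 instead of 1 were lower in culture than in vivo in controls. With each library left out, between 0 and 1 were higher in culture, between 1 and 2 lower in vivo, and between 3 and 5 more negative in culture, and the median of the chromosome 11 genes lay between -1.17 and -0.77 in vivo and between 1.71 and 2.09 in controls.

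Of the genes beside the run, 7 were lower in culture without a filter and 1 with 10 counts in every library, and 1 in vivo with the latter. Of the other ligands, 2 were lower in culture in the single model. In vivo, 1 was higher with DESeq2, 3 without a filter, 1 with 10 counts in every library, 1 with the replicate block, and 2 in the single model, and 0 were lower with 10 counts in every library. Of the receptors, 1 was lower in culture with 10 counts in every library and 2 were lower in vivo without a filter. In vivo, 1 NF-κB gene was lower with DESeq2 and 1 in the single model, 1 AP-1 gene was lower without a filter and 1 in the single model, and 2 AP-1 genes were higher without a filter. With each library left out, the counts of lower genes ranged from 2 to 4 for other ligands in culture and from 0 to 1 in vivo (higher, from 0 to 3), from 1 to 3 and from 0 to 2 for receptors, from 3 to 5 for AP-1 genes in culture, and from 0 to 1 for NF-κB genes in vivo.

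With both shLuci in vivo libraries of the most detected genes left out, an alternative chosen after seeing the data, 1 gene beside the run was lower, 0 other ligands were lower and 2 higher, 0 AP-1 genes were higher, and 1 interferon pathway gene was lower. The sign of 3 uncalled genes in vivo turned, *Mmp28* (-0.21) and *Taf15* (-0.18) without these libraries, *Taf15* between -0.0298 (without shLuci in vivo replicate 2) and 0.23 with each library left out, and *Wfdc21* between -0.0274 (without shRad21 in vivo replicate 3) and 0.30.

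With the replicate block, *Ccl2* (1.68, adjusted p = 0.00014), *Mmp28*, and *Taf15* passed in culture, so that 1 chemokine ligand was higher. Equal numbers did not pair the in vivo libraries (r between 0.024 and 0.0694). There the block brought *Ccl5* (adjusted p = 0.0405) and *Cx3cl1* (adjusted p = 0.0112) past the threshold and *Ccl6* below it (adjusted p = 0.0698). *Irf2bp2* was called lower in vivo without the block (-0.26, adjusted p = 0.0422 from edgeR) but not with it (adjusted p = 0.0733). In the comparison between settings, the block brought *Ppbp* (-2.05, adjusted p = 0.0199) and *Fos* (adjusted p = 0.0457) past the threshold. It did so as well for *Ncf1* (-0.83, adjusted p = 0.0412) and *Fcgr2b* (-1.17, adjusted p = 0.0161). Markers of cell types aside, the block changed no other knockdown call of a named gene. For single genes, 580 values outside the libraries left out kept direction and side of the threshold, 36 newly passed, 16 no longer passed, and 2 turned sign. Depth limited *Ccl17*, *Ccl22*, and, in vivo, *Cxcl2*.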
